A study of Mus musculus with 11 samples.

Results

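Foxj1, Mcidas, Gmnc, Ccno, Myb, Trp73, E2f4 and E2f5 are regulators of multiciliogenesis, the program by which epithelial cells of airway, brain ventricle and reproductive ducts build many motile cilia. These 8 genes were taken as the rows of the count table whose Ensembl identifiers carry the listed symbols in GENCODE M21, and all 8 were found among 23074 genes. RNA-Seq read counts were made from whole decapsulated testes taken at postnatal day 21 from 6 Rfx2-/- mice and 5 wild type (Rfx2+/+) mice, an age when the first wave of spermatogenesis has produced round spermatids. All mice had a mixed C57BL/6, 129/Sv and FVB/N background. In the Rfx2-/- mice exon 7 of Rfx2, which codes for much of the DNA binding domain, had been removed by Cre under the ACTB promoter in an FVB/N line, and the mixed background line was described as keeping the neomycin cassette of the targeting vector. The deletion was general, so that every cell type carried the null allele. The paper cites earlier immunohistology in which RFX2 was found only in the germ line and not in Sertoli cells. Counts of whole testes do not tell in which cells a genotype difference arose. Wild type mice are numbered 1 to 5 and Rfx2-/- mice 6 to 11 below.

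In multiciliated epithelia, GEMC1 (Gmnc) and multicilin (Mcidas) are relatives of geminin that switch on the program in complexes with E2F4 or E2F5. p73 (Trp73), c-Myb (Myb) and cyclin O (Ccno) act with them in centriole amplification and ciliary gene expression, and FOXJ1 is the forkhead factor that, together with RFX proteins, turns on genes of the motile axoneme. The testis poses a different case, since a spermatid builds a single motile flagellum from its existing centrioles. The comparison of genotypes asked whether the RNA levels of these regulators differed when RFX2, a transcription factor of the RFX family expressed in spermatocytes and early spermatids, was absent.

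Total counts lay between 22232097 and 29769483 per mouse, and 3 counts, taken as the floor of a library, corresponded to 0.0852 to 0.139 CPM, the normalised read count on library sizes scaled by TMM. The floor covers counting error only. Read counts of Rfx2 itself cover the whole gene and do not check the deletion: Rfx2 lay at 191 to 472 CPM in wild type and at 282 to 324 CPM in Rfx2-/- testes. Markers of cell types differed within and between genotypes. Markers of some somatic cell types, and of spermatogonia, were on balance lower in Rfx2-/- testes. At an unadjusted p under 0.05, which 41.8% of all tested genes passed, 7 of 8 Sertoli, 3 of 3 endothelium, 3 of 5 macrophage and 2 of 6 Leydig markers were lower and 0 higher. Their median log2 fold changes were -0.35, -0.46, -0.46 and -0.54, and of these markers only Hsd3b1 of the Leydig list passed an edgeR adjusted p of 0.01 (-0.86, adjusted p = 0.00126). Other somatic lists did not go this way. At the unadjusted limit 0 of 4 peritubular and 0 of 4 erythroid markers passed (medians -0.04 and 0.22). Of 4 lymphocyte markers 1 was lower and 1 higher (median 0.04). The lower marker, Lck, was also called by edgeR (-1.26, adjusted p = 0.00169). Of 8 spermatogonia markers 4 were lower and 0 higher (median -0.42). The summed level of 10 round spermatid markers was 43.9 to 610 CPM in wild type and 162 to 914 CPM in Rfx2-/- mice. The mean log2 CPM of 7 pachytene spermatocyte markers was 7.54 and 7.23 in wild type replicates 3 and 5 and 8.71 to 9.38 in the other 9 mice. Wild type replicate 1 stood apart in 7 markers of duct epithelium, with a sum of 110 CPM against 43.9 to 54.4 CPM in the other 10 mice. In bulk testis, fewer cells of a type and less RNA per cell cannot be told apart.

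Of the 8 regulators, 5 (Foxj1, Ccno, Trp73, E2f4 and E2f5) passed the filter on low counts and were tested, and Mcidas, Gmnc and Myb did not pass it. With edgeR's quasi-likelihood test and an adjusted p of at most 0.01, none of the 5 was called, 0 lower and 0 higher in Rfx2-/- testes. Of all 15745 genes tested, 1.94% were called lower and 0.730% higher, 2.67% in all. At an adjusted p of at most 0.05, 1 of the 5, Ccno, was lower and 0 were higher, where 8.78% of all tested genes were lower and 6.15% higher. Ccno was also the only 1 of the 5 at an unadjusted p under 0.05, a limit that 41.8% of all tested genes passed. DESeq2's Wald test called Ccno lower at an adjusted p of at most 0.01, as it did 5.74% of all tested genes, and limma voom called none of the 5. The median log2 fold change over the 5 was 0.04, and over all genes tested -0.05.

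Levels of the regulators spanned a wide range. On the scale of CPM per kb of merged exon, E2f4 was highest in wild type testes at 30.6 ± 1.501 (SD, n = 5), followed by E2f5 at 16.9 ± 0.661 and Foxj1 at 10.7 ± 12.2. Ccno came next at 1.59 ± 0.295. Trp73 (0.112 ± 0.0911), Myb (0.105 ± 0.0376), Mcidas (0.0814 ± 0.0254) and Gmnc (0.0289 ± 0.0136) formed the low end. In wild type mice the ranges of neighbours in this order were apart for E2f4 and E2f5, for Ccno and Trp73, and for Mcidas and Gmnc, and overlapped for the other pairs. The order was the same in Rfx2-/- testes, where the ranges of Foxj1 and Ccno were also apart and those of Mcidas and Gmnc overlapped. The E2F factors that serve as partners were detected at a level per length far above that of the geminin relatives, GEMC1 and multicilin.

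**Figure D1:**
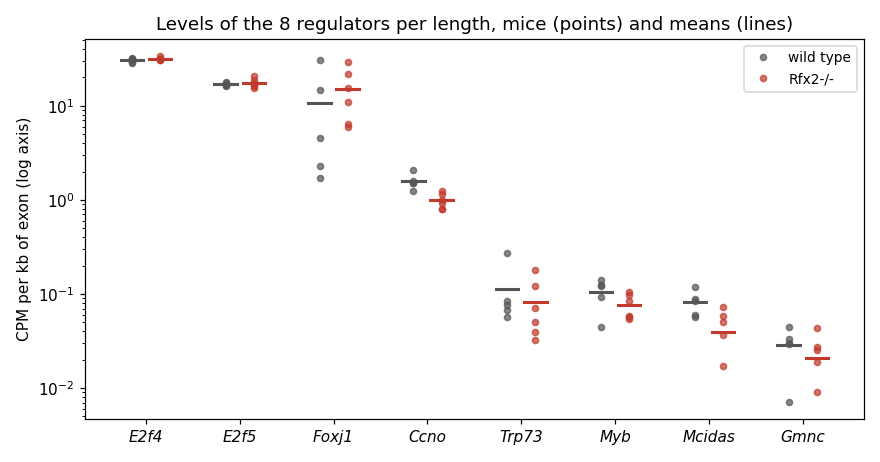
Level of each regulator in CPM per kb of merged exon, on a log axis, with points for mice (5 wild type, 6 Rfx2-/-) and lines for group means. E2f4, E2f5 and Foxj1 lie above Ccno in mean level, and Trp73, Myb, Mcidas and Gmnc lie lowest. Mcidas in Rfx2-/- replicate 9 and Gmnc in Rfx2-/- replicate 8 had 0 counts and are not drawn.

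Ccno (ENSMUSG00000042417, GRCm38 chr13:112987802-112990777, plus strand, 3 exons) codes for cyclin O, which is needed for centriole amplification in multiciliated cells. Its levels in wild type replicates 1 to 5 were 3.88, 2.99, 2.36, 2.84 and 2.86 CPM. In Rfx2-/- replicates 6 to 11 they were 2.15, 1.49, 1.76, 1.51, 2.30 and 1.87 CPM. The groups did not overlap, although the highest Rfx2-/- value and the lowest wild type value were close. All Rfx2-/- values were under all wild type values in 5.20% of the genes tested and above them in 6.50%, and of the 5 tested regulators this held for Ccno in the first direction and for 0 in the second. The means were 2.99 ± 0.553 CPM (SD, n = 5) and 1.85 ± 0.333 CPM (SD, n = 6). The log2 fold change was -0.69 (SE 0.17, 95% interval -1.05 to -0.33) with an edgeR adjusted p of 0.0258, which misses the limit of 0.01. These levels rest on 81 to 110 reads in wild type and 34 to 54 reads in Rfx2-/- libraries.

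Wild type replicate 1, the mouse with the highest duct epithelium markers, also had the highest Ccno level. Without it the log2 fold change of Ccno was -0.58, with an edgeR adjusted p of 0.0239. With wild type replicates 3 and 5 left out instead, it was -0.80 (edgeR adjusted p = 0.0247). The duct markers had the same sign as Ccno: all 7 had a log2 fold change below 0, with a median of -1.28, while edgeR called 0. At an unadjusted p under 0.05, 3 of 7 (Cdh1 -1.28, Pax8 -1.43 and Pax2 -1.28) were lower. This share, 42.9%, was close to the 41.8% of all tested genes in either direction. Without wild type replicate 1, 5 of 7 were below 0 and the median was -0.38. Of the 7, 2 (28.6%) were then lower at an unadjusted p under 0.05. Most of their summed level was Epcam (41.8 CPM on average in wild type and 37.8 CPM in Rfx2-/- testes). The mean log2 CPM of the 7, in which each counts equally, was 3.58 in wild type replicate 1, 0.96 to 1.74 in wild type replicates 2 to 5 and 0.34 to 1.88 in Rfx2-/- mice. The 7 markers of multiciliated epithelium summed to 20.9 to 32.9 CPM in wild type and 17.3 to 24.97 CPM in Rfx2-/- testes, with 4 of 7 tested and 0 of these 4 called by edgeR. Their median log2 fold change was -0.37, and 2 of the 4, Fam183b (-2.16) and Cyp2s1 (-0.59), were lower at an unadjusted p under 0.05, against 41.8% of all tested genes in either direction. Fam183b reached 14.9 CPM in its highest wild type mouse, with medians of 0.795 CPM in wild type and 0.650 CPM in Rfx2-/- mice. Without wild type replicate 1, 1 of the 4 markers was lower and 1 higher at this limit (median -0.46). Tmem212, Sec14l3 and Fam216b of this list were near 0, with 12, 8 and 1 counts over the 5 wild type libraries and 2, 1 and 2 over the 6 Rfx2-/- libraries. The part of these cells, and of the somatic cell types whose markers were lower, in the Ccno difference was not tested.

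The gene next to Ccno is Mcidas, which begins 3067 bases further on the same strand. RFX proteins bind X-boxes, whose consensus was searched here on both strands as GTTNCC, then 2 bases of any kind, then its reverse complement GGNAAC, with at most 1 mismatch. A shorter search took the left arm as GTTGCC without mismatch, also on both strands. The arm may lie within an X-box match, so the searches overlap. The windows of 250 bases before and 50 bases after annotated starts (RefSeq, GRCm38.p6) held the longer motif in 2.56% of 32851 cases and the arm in 12.5%. Windows were found for 5 of the 8 regulators, Ccno, Mcidas, Gmnc, Myb and Trp73. The windows of Ccno (chr13:112987552-112987851) and Mcidas (chr13:112993618-112993917) are shown because these neighbours code for centriole amplification regulators and lie in 1 cluster. Both are on the plus strand of GRCm38.p6, and capitals mark the motif matches.
Ccno: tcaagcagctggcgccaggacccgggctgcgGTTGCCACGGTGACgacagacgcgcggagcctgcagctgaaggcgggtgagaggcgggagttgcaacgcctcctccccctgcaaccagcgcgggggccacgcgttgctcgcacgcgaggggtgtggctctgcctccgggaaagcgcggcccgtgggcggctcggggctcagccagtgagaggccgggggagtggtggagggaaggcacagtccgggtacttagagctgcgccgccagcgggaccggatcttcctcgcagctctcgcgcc
Mcidas: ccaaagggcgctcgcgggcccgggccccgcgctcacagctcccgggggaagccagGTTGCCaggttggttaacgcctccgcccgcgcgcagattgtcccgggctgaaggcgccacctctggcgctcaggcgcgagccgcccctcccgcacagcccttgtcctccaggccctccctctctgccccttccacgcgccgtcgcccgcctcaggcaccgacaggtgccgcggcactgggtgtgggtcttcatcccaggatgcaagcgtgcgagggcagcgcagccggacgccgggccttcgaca

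The Ccno window held the longer motif with 1 mismatch, GTTGCCACGGTGAC at chr13:112987583-112987596, whose left arm is the match of the shorter search. The Mcidas window held only the arm, GTTGCC at chr13:112993673-112993678. In Trp73, which has 2 windows, the window at the upstream start (chr4:154139826-154140125, minus strand) held the reverse complement of the arm, GGCAAC. Neither the window of Myb nor the 2 windows of Gmnc held a match. These are matches of letters, and binding was not measured in them here.

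Mcidas (ENSMUSG00000074651, chr13:112993845-113000394, plus strand, 7 exons), which codes for multicilin, was close to the floor. Wild type replicates 1 to 5 had 4, 4, 7, 6 and 9 counts. Rfx2-/- replicates 6 to 11 had 3, 1, 3, 0, 2 and 4 counts, and 5 of these 6 libraries were at or under the floor of 3. The ranges overlapped in CPM. The mean difference, Rfx2-/- minus wild type, was -0.100 CPM, with a 2-sided p of 0.0260 in an exact permutation test over all splits of the 11 mice, 1 of 3 such tests made on genes below the filter. Fitted by edgeR without the filter, among all 20306 genes with a count, the log2 fold change was -1.02 (SE 0.52) with an adjusted p of 0.182. No difference was called at this depth.

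Gmnc (ENSMUSG00000068428, chr16:26913553-26991652, minus strand, 7 exons), which codes for GEMC1, an upstream activator of the program, had 6, 1, 5, 4 and 5 counts in the wild type and 3, 5, 0, 2, 3 and 1 counts in the Rfx2-/- libraries. The groups overlapped over most of their range (exact permutation p = 0.374, 2-sided). Myb (ENSMUSG00000019982, chr10:21124935-21160984, minus strand, 16 exons), a proto-oncogene of progenitor cells and an early factor in multiciliated cells, had 15, 5, 16, 10 and 15 counts in the wild type and 8, 5, 8, 5, 5 and 9 counts in the Rfx2-/- libraries. Wild type replicate 2 was as low as the lowest Rfx2-/- mice in counts, and the difference gave an exact permutation p of 0.149 (2-sided). Exons of Myb overlap 491 bases of the antisense gene Gm26577, and with the strand setting of the counting not given, reads of the overlap cannot be assigned with certainty. In the fit without the filter none of these 3 genes passed the limit (edgeR adjusted p = 0.182, 0.605 and 0.327 for Mcidas, Gmnc and Myb).

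Foxj1 (ENSMUSG00000034227, chr11:116330704-116335399, minus strand, 3 exons) varied most among mice of the 8 regulators relative to its mean in wild type testes, with a coefficient of variation of 113%. Wild type replicates 1 to 5 had 79.6, 38.8, 5.94, 11.9 and 4.43 CPM, a 17.9-fold range. Rfx2-/- replicates 6 to 11 had 57.3, 76.9, 16.8, 15.6, 40.9 and 28.6 CPM, a 4.91-fold range. The Rfx2-/- values lay inside the wild type range, with replicate 7 close to the highest wild type mouse. Means were 28.1 ± 31.9 CPM (SD, n = 5) and 39.4 ± 24.2 CPM (SD, n = 6), and the log2 fold change was 0.49 (SE 0.74, 95% interval -1.13 to 2.11, edgeR adjusted p = 0.621). This interval allows a difference in either direction of more than the fitted size. One mouse moved the value: without wild type replicate 1 it was 1.37 (edgeR adjusted p = 0.122).

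**Figure D2:**
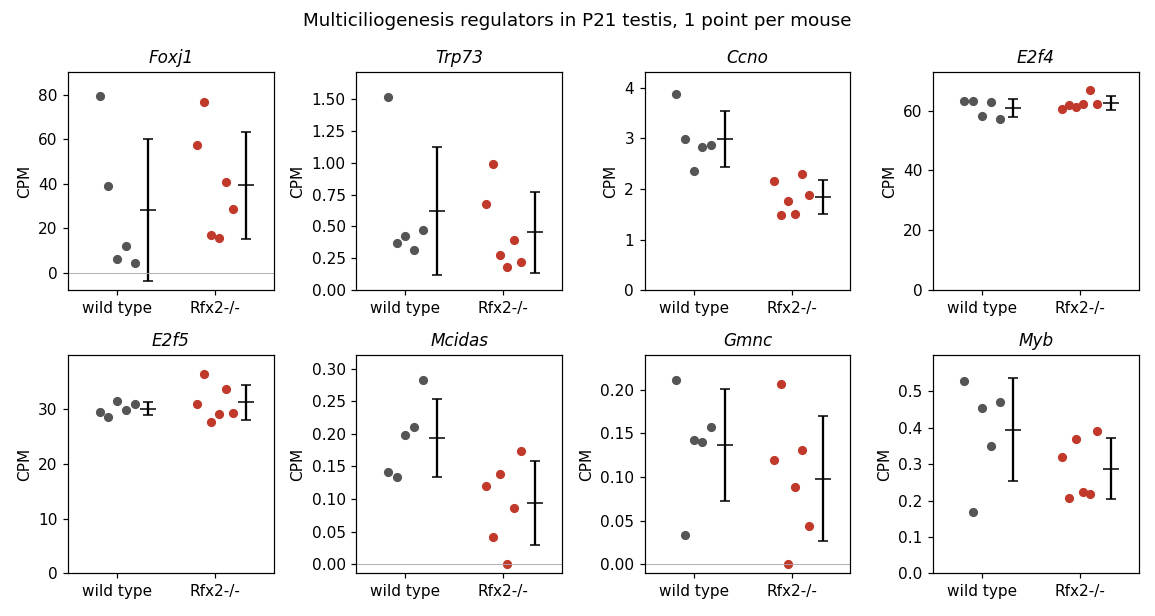
CPM of each regulator by mouse (points, in order of replicate number) in wild type (gray, n = 5) and Rfx2-/- (red, n = 6) testes, with the mean and SD in black. Linear axes include 0. Ccno is the tested gene whose groups do not overlap, at 2.36 to 3.88 CPM in wild type and 1.49 to 2.30 CPM in Rfx2-/- testes, while Foxj1 and Trp73 vary severalfold within each group and E2f4 and E2f5 vary little.

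The Foxj1 level followed the round spermatid markers from mouse to mouse. A score was taken as the mean log2 CPM of 10 markers (Acr, Acrv1, Spaca1, Spaca3, Izumo1, Catsper3, Tssk1, Tssk2, Sun5 and Tex36, genes of the acrosome, sperm membrane and spermatid nucleus). It ranged from -0.43 to 5.73 in wild type and from 2.02 to 6.33 in Rfx2-/- mice. Over 11 mice log2 CPM of Foxj1 and the score had a Pearson r of 0.987 and a Spearman rho of 0.982, each with a permutation p of 2e-05, the smallest that the resampling can give, and 0.0001 when adjusted over the 5 genes related to the score. Without the 2 mice farthest from the median score, wild type replicates 3 and 5, r was 0.989. Within the 6 Rfx2-/- mice r was 0.996 (exact permutation p = 0.00556, adjusted 0.0278; 0.998 without replicates 7 and 8) and rho 0.943 (exact permutation p = 0.0167, adjusted 0.0417). Wild type mice, too few for a correlation of their own, stood in the same order by Foxj1 as by the score. They stood in this order by the pachytene spermatocyte markers too, from a mean log2 CPM of 7.23 in replicate 5 to 9.01 in replicate 1. Among Rfx2-/- mice, replicates 7, 6 and 10 were highest, in this order, by Foxj1, by the score and by the pachytene markers. The relation of Foxj1 to the pachytene markers was not tested, nor was the share of all genes that follow the score this closely.

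With the score as a covariate in the edgeR fit, the log2 fold change of Foxj1 was -0.06 (SE 0.14, 95% interval -0.37 to 0.24, adjusted p = 0.756). The interval at equal marker score was much narrower than in the fit without the score, and both intervals included 0. The score comes from the same libraries and may itself differ with genotype, so this fit does not isolate a genotype effect. None of the 10 markers was called between genotypes, with 1, a higher one, at an unadjusted p under 0.05 in edgeR. Their log2 fold changes were nonetheless mostly above 0, in 9 of the 10, with a median of 1.005. Without wild type replicate 1 all 10 were above 0, with a median of 2.58. Of these, 6 were then higher at an unadjusted p under 0.05. Among 14426 tested genes of at least 1 CPM on average, the genes most like Foxj1 over the 11 mice were Tex13c1 (r = 0.995) and Izumo2 (r = 0.994). Both were nearly absent from the wild type mouse with the lowest level (0.0314 CPM each) and reached 11.6 and 23.7 CPM in the highest Rfx2-/- mouse.

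**Figure D3:**
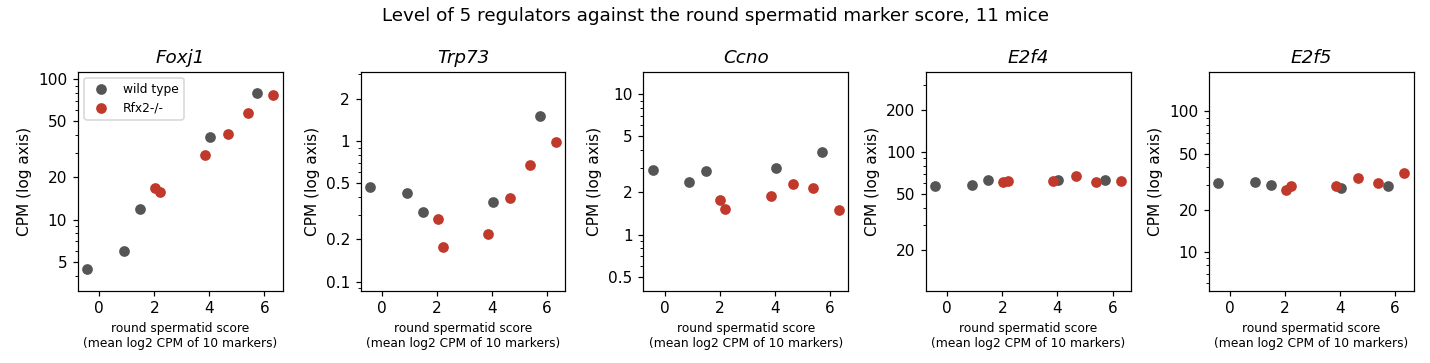
Level of the 5 tested regulators in CPM (log axes, each spanning the same fold range) against the round spermatid score of each mouse (mean log2 CPM of 10 markers), for 5 wild type (gray) and 6 Rfx2-/- mice (red). Foxj1 is higher in mice of higher score in both genotypes (r = 0.987 over 11 mice), Ccno lies lower in Rfx2-/- than in wild type mice, and E2f4 and E2f5 are nearly flat.

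Trp73 (ENSMUSG00000029026, chr4:154056253-154140208, minus strand, 17 exons), the p53 relative that acts upstream of Foxj1 in multiciliated cells, was low. Wild type replicates 1 to 5 had 1.52, 0.370, 0.426, 0.315 and 0.472 CPM, and Rfx2-/- replicates 6 to 11 had 0.678, 0.991, 0.277, 0.178, 0.391 and 0.218 CPM. Wild type replicate 1 was above all other mice, and the groups overlapped. This mouse had the highest duct markers and, with 5.73, the highest round spermatid score of its group. The next highest in Trp73, Rfx2-/- replicate 7, had the highest round spermatid score of all mice (6.33) and the lowest mean log2 CPM of duct markers (0.34). The log2 fold change was -0.42 (SE 0.54, edgeR adjusted p = 0.556). It became 0.21 without wild type replicate 1 (edgeR adjusted p = 0.717). With the spermatid score as covariate it was -0.99 (95% interval -1.82 to -0.16), which misses the limit after adjustment (edgeR adjusted p = 0.0869).

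Over 11 mice the relation of Trp73 to the round spermatid score did not pass a test (r = 0.564, permutation p = 0.0668, adjusted 0.111, and rho = 0.464, permutation p = 0.154, adjusted 0.257), and r was 0.808 without the 2 farthest mice. In the 6 Rfx2-/- mice r was 0.889 (exact permutation p = 0.025, adjusted 0.0417) and rho 0.829 (exact permutation p = 0.0583, adjusted 0.0972). Without the 2 farthest Rfx2-/- mice, replicates 7 and 8, r was 0.913 over 4 mice. The genes most like Trp73 were Nova2 (r = 0.956), a neuronal splicing factor, and Tbc1d9 (r = 0.954). Trp73 exons overlap 280 bases of the antisense gene Trp73os, so part of these few reads may belong to either gene.

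E2f4 (ENSMUSG00000014859, chr8:105297663-105305370, plus strand, 10 exons) and E2f5 (ENSMUSG00000027552, chr3:14578641-14606309, plus strand, 8 exons) code for E2F factors that repress cell cycle genes with pocket proteins and, bound to multicilin or GEMC1, activate centriole genes. E2f4 in wild type replicates 1 to 5 was at 63.3, 63.2, 58.3, 62.8 and 57.1 CPM, and in Rfx2-/- replicates 6 to 11 at 60.6, 62.0, 61.0, 62.2, 67.0 and 62.2 CPM. The log2 fold change was 0.04 (SE 0.05, 95% interval -0.07 to 0.14, edgeR adjusted p = 0.568). E2f5 was at 29.5, 28.6, 31.5, 29.8 and 31.0 CPM in wild type and at 31.0, 36.5, 27.7, 29.2, 33.7 and 29.4 CPM in Rfx2-/- mice. Its log2 fold change was 0.05 (SE 0.08, 95% interval -0.12 to 0.23, edgeR adjusted p = 0.600). The groups of both genes overlapped, and the intervals leave room only for small differences on this scaling. On total counts both log2 fold changes were -0.12, where the median of all tested genes was -0.22.

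Within Rfx2-/- mice E2f5 related to the spermatid score (r = 0.871, exact permutation p = 0.0194, adjusted 0.0417, and rho = 0.943, exact permutation p = 0.0167, adjusted 0.0417), but r was 0.633 without replicates 7 and 8, over 4 mice. Over 11 mice the relation did not pass a test (r = 0.370, permutation p = 0.266, adjusted 0.332, and rho = 0.173, permutation p = 0.615, adjusted 0.618), and r was 0.642 without wild type replicates 3 and 5. E2f4 gave r = 0.618 over 11 mice (permutation p = 0.042, adjusted 0.105) with rho = 0.491 (permutation p = 0.128, adjusted 0.257), and only 0.141 without wild type replicates 3 and 5, the mice that the relation rested on. For Ccno r was -0.08 (permutation p = 0.808, adjusted 0.808) and rho -0.17 (permutation p = 0.618, adjusted 0.618). This r was 0.130 without wild type replicates 3 and 5. Within Rfx2-/- mice r was 0.206 for Ccno (exact permutation p = 0.658, adjusted 0.823), but 0.933 over the 4 mice left without replicates 7 and 8, so that this value depends on those mice. For E2f4 it was 0.139 (exact permutation p = 0.875, adjusted 0.875) and 0.0768 without them. The genes most like Ccno were Efna3 (r = 0.926) and Arhgef10l (r = 0.917), both lower in Rfx2-/- testes (log2 fold change -1.38, edgeR adjusted p = 0.000931, and -1.92, edgeR adjusted p = 0.00158), so that part of this likeness is the shared genotype difference. E2f4 was most like Arhgap39 (r = 0.915) and Gm8906 (r = 0.911), and E2f5 most like ENSMUSG00000021020 (r = 0.931), to which the annotation gives no symbol, and Trip10 (r = 0.909).

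**Figure D4:**
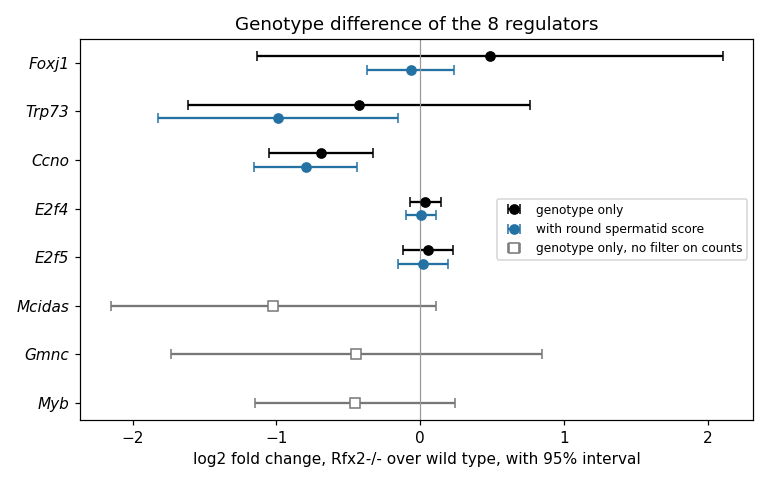
Log2 fold change (Rfx2-/- over wild type) of the 8 regulators with 95% intervals from edgeR, fitted with genotype only (black), with the round spermatid score added (blue), and, for the 3 genes below the filter, without a filter on counts (open squares). Ccno lies below 0 in both of its fits, and adding the score narrows the Foxj1 interval from -1.13 to 2.11 to -0.37 to 0.24.

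The wider pathway was followed in 88 genes in 12 lists, of which 87 were tested. edgeR called 6 lower and 1 higher, where 1.94% of all tested genes were called lower and 0.730% higher. The lists were chosen with earlier results of these data known, so these counts are no separate support. The median log2 fold change of the 87 genes was 0.10. All 6 lower genes were among the 20 genes of the motile axoneme, the downstream structural targets of FOXJ1 and RFX factors. Dnaic2, an outer dynein arm intermediate chain, fell from 57.4 ± 38.4 to 0.945 ± 0.297 CPM (log2 fold change -5.91, edgeR adjusted p = 0.000148). The radial spoke head gene Rsph9 fell from 50.9 ± 26.2 to 1.82 ± 0.472 CPM (-4.80, edgeR adjusted p = 4.61e-05). Rsph4a, of the same structure, fell from 94 counts over 5 libraries to 11 over 6 (-2.92, edgeR adjusted p = 0.000890). Each wild type library had 11 to 26 counts of it and each Rfx2-/- library 1 to 3, at or under the floor of 3. The size of its fold change is therefore uncertain.

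Cfap53, a gene of motile cilia and flagella, also fell (-4.48), as did Ccdc40, which sets the axonemal repeat with Ccdc39 (-2.16), and Zmynd10, a dynein arm assembly factor (-1.45). Their edgeR adjusted p values were 0.000134, 0.000920 and 0.00263. In all 6 lower genes the Rfx2-/- values were under all wild type values, as in 5.20% of the genes tested. The genes were called on these same values, so this separation is no separate support. The part of the lower somatic and duct markers in these differences was not tested. The other 14 axoneme genes were not called, and the median log2 fold change of the 20 was -0.13. The higher gene was Cntrob (centrobin, a daughter centriole protein), 1 of 13 centriole amplification genes, at 73.9 ± 10.05 and 101 ± 3.78 CPM (0.45, edgeR adjusted p = 0.00885). It was not called on total counts, nor in 9 of the 11 fits that left out a mouse, whereas the 6 lower genes were called in all 11.

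In the other 10 lists edgeR called none, and the 2 genes of each list with the lowest p are given here. Among the geminin and licensing genes, Gmnn, which codes for the inhibitor of replication licensing, was at 0.20 (log2 fold change, edgeR adjusted p = 0.0829) and Cdc6, a licensing factor, at 0.20 (0.104). Among the other E2Fs, E2f1 was at -0.46 (0.0810) and E2f6 at -0.34 (0.115). Of the pocket protein genes, whose products hold E2F4 and E2F5, Rbl1 was at 0.27 (0.0391) and Rbl2 at -0.38 (0.0487). The MuvB core genes Lin52 and Lin54 were at 0.42 (0.0293) and 0.26 (0.0517).

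The Myb relatives Mybl1, which codes for the A-MYB factor of pachytene spermatocytes, and Mybl2 were at 0.27 (0.0924) and -0.17 (0.325), again as log2 fold change and edgeR adjusted p. At 142 ± 28.0 CPM in wild type, Mybl1 was far above Myb, at 0.394 ± 0.142 CPM. The p53 relatives Trp53 and Trp63 were at -0.15 (0.244) and 0.03 (0.875). Of the forkhead genes, Foxm1, a factor of mitotic entry, was at 0.68 (0.0579) and Foxj3 at -0.18 (0.235). Of the RFX family, Rfx5 was at 0.22 (0.0381) and Rfx4 at 0.59 (0.0715).

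Among cell cycle genes used in multiciliated cells, Cdc20, an activator of the anaphase promoting complex, was at 0.36 (0.0478) and Ccna1, a male germ line cyclin also counted among the pachytene markers, at 1.34 (0.0523). In the cilium docking and function list the tubulin genes Tubb4b and Tuba1a were at 0.69 (0.0288) and -0.46 (0.0307). Without a call at 0.01 in edgeR, 32 of the 54 tested genes of these 10 lists (59.3%) were at an unadjusted p under 0.05, 8 lower and 24 higher, against 41.8% of all tested genes. The markers of pachytene spermatocytes, 0 of 7 called by edgeR but 4 at an unadjusted p under 0.05, had a median log2 fold change of 0.65, and their part in these values was not tested.

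**Figure D5:**
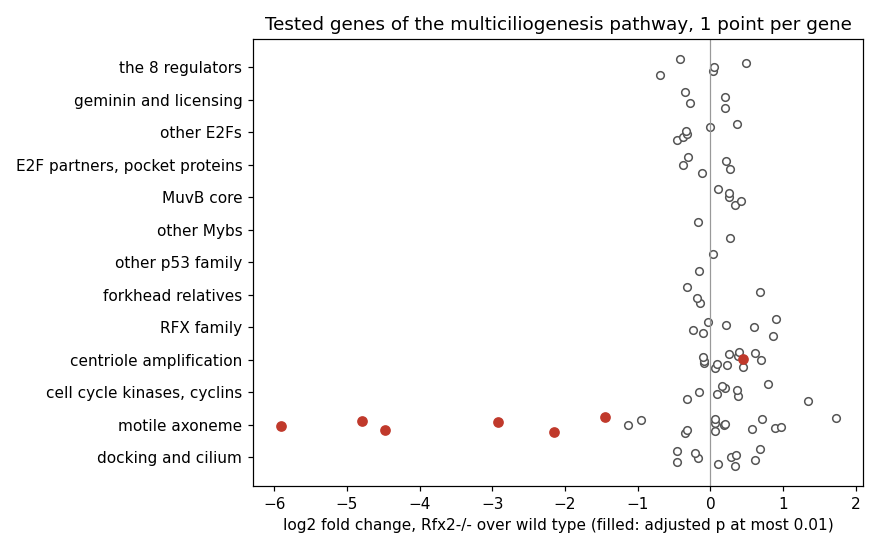
Log2 fold change (Rfx2-/- over wild type, x axis) of each tested gene in the regulator list and the 12 pathway lists (rows), with filled red points for an edgeR adjusted p of at most 0.01. The filled points are 6 lower genes of the motile axoneme, down to -5.91, and 1 higher centriole gene at 0.45, and the 5 tested regulators lie between -0.69 and 0.49.

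Deup1, a component of the deuterosome on which multiciliated cells make centrioles, and Cdc20b, the gene that follows Mcidas by 34716 bases, were looked at after their values were seen. Deup1 was at 6.92 to 96.5 CPM in wild type and 4.72 to 86.5 CPM in Rfx2-/- mice (log2 fold change -0.11, edgeR adjusted p = 0.931). Cdc20b was at 2.89 to 7.61 CPM and 5.07 to 6.07 CPM (0.23, edgeR adjusted p = 0.423). Neither was called in this fit. Deup1 was called in the fit with the round spermatid score and in none of the other alternatives.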

How the data were processed

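The authors sequenced single reads of TruSeq libraries (per the labels, CASAVA 1.8.2, STAR 2.4 and featureCounts 1.4.6), mapped them to GRCm38, discarded reads mapping to several places and counted reads on merged protein coding exons, leaving out reads shared by exons of different genes. Descriptions of the aligner differ between paragraphs, and the strand setting is not given in the sources used here. The deposited values were raw counts per gene and mouse. The p-values of genotype comparisons set the difference against the variation between mice, counting error included, and those of the score relations come from permutation.

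Counts were analysed with edgeR 4.0.16 (R 4.3.3): filterByExpr, TMM, glmQLFit and glmQLFTest on genotype, Benjamini-Hochberg adjustment over 15745 genes, and calls at an adjusted p of at most 0.01. Symbols came from GENCODE M21 (22293 identifiers). CPM of genes below the filter were compared by exact permutation. DESeq2 1.42.0, limma 3.58.1, other scalings, other filters, a covariate and left-out mice were alternatives. Tests were checked on simulated counts. The regulators and all lists were chosen with earlier results of these data known. Named genes were the 8 regulators, every pathway gene called or the 2 of lowest p in a list without calls, and the 2 genes most like each tested regulator. Day 30 mice and ChIP-Seq were not analysed here.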

Additional observations from a re-analysis of the deposited data

Results flagged for a closer look

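In each group of 5 or 6 mice the highest and lowest CPM of the 8 regulators were compared with the other values by Dixon's test. Of 16 groups tested, 2 held a value far from the rest, where chance marks about 1 group in 20. Trp73 was far above the other wild type mice in wild type replicate 1, at 1.52 CPM. This mouse also had the highest duct epithelium markers, round spermatid score, Foxj1 level and Ccno level of its group. E2f4 was far above the other Rfx2-/- mice in Rfx2-/- replicate 10, at 67.0 CPM.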

How the results depend on the processing

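No paired analysis was possible because the labels number wild type mice 1 to 5 and Rfx2-/- mice 6 to 11, so that the groups share no replicate number. The count of regulators called, 0, became 1 (Ccno) on total counts, with DESeq2's Wald test, with the round spermatid score as covariate and at the looser limit of 0.05, and stayed at 0 with any mouse left out. The log2 fold change of Ccno was then -0.84, -0.66, -0.80 and -0.69, and -0.76 to -0.58 with any mouse left out. Adjusted p over all alternatives was 0.00662 to 0.0565 for Ccno, 0.122 to 0.925 for Foxj1, 0.0869 to 0.787 for Trp73, 0.111 to 0.967 for E2f4 and 0.330 to 0.960 for E2f5. Foxj1 turned to -0.06 with the score and to -0.14 without wild type replicates 3 and 5, an alternative chosen after seeing the data, and lay between 0.18 and 1.37 with any mouse left out. Trp73 turned to 0.21 without wild type replicate 1 and was -0.80 at the lowest with a mouse left out. E2f4 and E2f5 turned to -0.12 each on total counts, and E2f4 to -0.00445 without wild type replicates 3 and 5. Left-out mice gave 0.02 to 0.05 for E2f4 and 0.01 to 0.09 for E2f5. The CPM differences of Mcidas, Gmnc and Myb stayed below 0 with any mouse left out, at -0.116 to -0.0777, -0.0645 to -0.0191 and -0.163 to -0.0733. The 7 pathway calls became 23 with DESeq2's Wald test, 16 with limma voom, 13 with the score, 11 without wild type replicates 3 and 5, and 22 at the limit of 0.05, and were 6 to 9 with any mouse left out. Wild type levels of E2f4 and E2f5 moved to 32.5 and 18.1 CPM per kb on total counts. The cause of these changes was not tested. Depth limits Mcidas and Gmnc, at 9 counts or fewer in every library.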
